A study of Mus musculus with 12 samples.

Results

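The genes described here are 8 of the 38887 genes in each deposited table, and together they encode the core of MHC class II antigen presentation. They were listed by name, with earlier results of these data known. H2-Aa, H2-Ab1 and H2-Eb1 encode chains of the class II molecules that hold peptides at the cell surface. Cd74 encodes the invariant chain, H2-DMa, H2-DMb1 and H2-DMb2 encode chains of the peptide-editing molecule H2-DM, and Ciita encodes the class II transactivator.

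Class II molecules are assembled from an alpha and a beta chain in the endoplasmic reticulum, where the invariant chain occupies the peptide groove and directs the complex to endosomes. There the invariant chain is degraded down to a fragment, and H2-DM exchanges this fragment for peptides of ingested proteins, which are then shown to CD4+ T cells. Transcription of these genes depends on CIITA, a co-activator without DNA binding of its own that is recruited by RFX, CREB and NF-Y at conserved promoter boxes. In macrophages, CIITA is best known for its induction by interferon-gamma, and IL-4 is a classical inducer of class II molecules in B cells and macrophages.

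The data were RNA-Seq of bone marrow-derived macrophages (BMMs), with 12 libraries in 4 groups of 3. WT M0 and KO M0 cells were left untreated, and WT M2 and KO M2 cells received 20 ng/ml IL-4 for 8 h. All cells came from bone marrow of mice aged 3 to 4 months and were differentiated for 6 days with 50 ng/ml M-CSF, which all 4 groups share. KO mice carried Igf2bp2 with loxP sites around exons 4 and 5 together with Cre recombinase in the Lyz2 locus, which is active in myeloid cells, and WT mice were littermates without the floxed alleles, in which Cre could be present or absent.

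Total counts per library were 24942666 to 29832430 in WT M0, 20011792 to 22744704 in WT M2, 26568719 to 37054582 in KO M0 and 27347077 to 39632770 in KO M2. Values of a gene between libraries are given in CPM, the usual depth-corrected read count, scaled here with the TMM factors of edgeR, and values of different genes are compared as TPM, the deposited abundance per transcript length. Counts of the whole Igf2bp2 gene do not check the deletion of 2 exons, and were 98.0 ± 20.7 CPM in WT M0, 90.8 ± 5.53 CPM in KO M0, 211 ± 28.7 CPM in WT M2 and 135 ± 9.54 CPM in KO M2 (SD, n = 3). The difference of Igf2bp2 between the genotypes was called in M2 (log2 fold change -0.65, edgeR adjusted p = 0.0285) and not in M0 (-0.11, edgeR adjusted p = 0.656). Lyz2, which holds the Cre insertion and was singled out after its values were seen, was at 4180 to 10500 CPM in WT and at no more than 33.2 CPM in KO libraries, so that loss of Igf2bp2 and loss of Lyz2 cannot be told apart here.

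Macrophage markers were abundant in all libraries, as the 7 genes of that list summed to 3490 to 4310 TPM. Markers of other class II-rich cells were mostly near 0, with 8 of 10 dendritic cell genes and 5 of 7 B cell genes under 1 TPM in all 12 libraries. The exceptions were Itgax and Zbtb46 of dendritic cells and Cd22 and Cd79b of B cells. Flt3, Xcr1, Ccr7 and Clec9a of dendritic cells did not exceed 0.2 TPM, and Ms4a1, Pax5 and Cd79a of B cells did not exceed 0.09 TPM. The 3 T cell genes were at 0 counts in all libraries, which allows up to 0.0757 to 0.15 CPM each at a limit of 3 counts per library.

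In GRCm38 coordinates, 6 of the 8 genes lie within 197134 bases of chromosome 17. From the lower to the higher coordinate these are H2-DMa (chr17:34119541-34139101, plus strand), H2-DMb2 (chr17:34143307-34151555, plus), H2-DMb1 (chr17:34153072-34160230, plus), H2-Ab1 (chr17:34257689-34269419, plus), H2-Aa (chr17:34282744-34287823, minus) and H2-Eb1 (chr17:34305867-34316674, plus). Ciita lies on chromosome 16 (chr16:10480059-10528418, plus strand), 11530590 bases from Igf2bp2 on the same chromosome, and Cd74 lies elsewhere. Ciita overlaps Dexi on the other strand over 25888 bases, H2-DMa overlaps Brd2 on the other strand over 3094 bases and CR974462.3 on the same strand over 591 bases, and H2-Eb1 overlaps Gm20513 on the other strand over 2204 bases. The libraries were made with a directional kit, but the strand setting of the counting is not given in the sources used here.

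Promoter sequences from RefSeq (GRCm38.p6, 250 bases before to 50 bases after the transcript start) were found for 5 of the 8 genes, H2-Aa, H2-Eb1, H2-DMa, H2-DMb1 and H2-DMb2. RefSeq transcript starts can differ from the ends of the gene coordinates given above. Those of H2-DMb1 and H2-DMb2 lie inside these coordinates, as do all or nearly all bases of their stretches. The stretches below are shown because the factors that bind them were measured in the same libraries, and because they let the reader compare the H2-DMb genes, which share reads. Each holds 75 bases around the forward match to ATTGG, the core of the box that binds NF-Y. Capitals mark ATTGG, CCTNGNAAC (a form of the box that binds RFX) and TGACG on either strand (the core of a CREB site).
H2-Aa, chr17:34287857-34287931, minus strand: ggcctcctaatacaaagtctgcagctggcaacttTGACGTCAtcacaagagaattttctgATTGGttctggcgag
H2-Eb1, chr17:34305748-34305822, plus strand: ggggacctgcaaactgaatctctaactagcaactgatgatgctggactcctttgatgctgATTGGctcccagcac
H2-DMb1, chr17:34153070-34153144, plus strand: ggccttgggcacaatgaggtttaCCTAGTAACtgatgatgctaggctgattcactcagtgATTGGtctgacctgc
H2-DMb2, chr17:34145099-34145173, plus strand: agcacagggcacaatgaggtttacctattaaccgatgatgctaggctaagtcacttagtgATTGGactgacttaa

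ATTGG began 48 bases before the start in H2-Aa, 59 in H2-Eb1, 61 in H2-DMb1 and 90 in H2-DMb2. In H2-DMa, of which no stretch is shown, 1 of the 2 windows held ATTGG, 198 bases before the start. Searched on both strands, ATTGG occurred in 37.4% of all 32851 promoters of this length, and the longer CTGATTGG, which contains it, in 4.1%. The longer form was found in the H2-Aa and H2-Eb1 promoters only among the 6 windows of these genes, of which H2-DMa has 2. CCTNGNAAC was found in H2-DMb1 alone and in 4.85% of all promoters, and TGACG in H2-Aa alone and in 20.8% of all promoters, where its matches on both strands overlap. Only exact matches to these forms were sought, so a missing match does not mean that a box is absent. TTCNNNGAA, a form of the STAT site, was found in H2-DMb2 alone and in 8.3% of all promoters. The H2-DMb1 and H2-DMb2 stretches share 62 of their 75 bases.

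Reads of H2-DMb1 and H2-DMb2 cannot always be told apart. Of the distinct stretches of 75 bases (the read length) in H2-DMb1 transcripts of GENCODE M21, 15.8% also occur in H2-DMb2, while H2-Aa, H2-Ab1, H2-Eb1, H2-DMa, Cd74 and Ciita share none with another gene on the sense strand. For H2-DMb2, 16.1% of the stretches occur in other genes, H2-DMb1 among them. Expected counts of H2-DMb2 were 8.61 to 24.2 per library with a deposited posterior SD of 1.31 to 2.3 counts, so that its values are uncertain beyond the spread between libraries.

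The 8 genes differed in abundance over several orders of magnitude in the same cells. Cd74 was the most abundant in every group, at 47.4 ± 14.7 TPM in WT M0, 181 ± 44.2 TPM in WT M2, 72.6 ± 4.47 TPM in KO M0 and 196 ± 30.2 TPM in KO M2 (SD, n = 3), and its libraries did not overlap those of the next gene. Ciita was the least abundant, at 0.0633 ± 0.0153, 0.163 ± 0.0513, 0.127 ± 0.0493 and 0.327 ± 0.0551 TPM in the same order. H2-DMb2 ranked just above Ciita with 0.66 to 1.65 TPM over the 12 libraries.

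**Figure D1:**
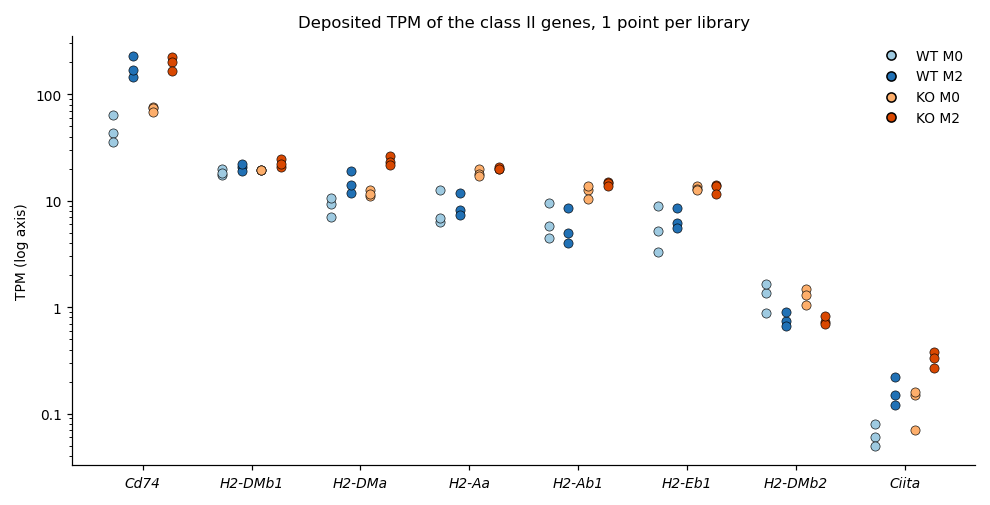
Deposited TPM (logarithmic axis) of the 8 class II genes, with 1 point per library and the 4 groups side by side for each gene. Cd74 lies between 35.3 and 230 TPM and above the other genes in each group, the chains of the class II molecules and H2-DMa and H2-DMb1 lie between 3.3 and 26.3 TPM, and Ciita lies between 0.05 and 0.38 TPM.

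The order of the middle 5 genes differed between the groups. In WT M0 it ran from H2-DMb1 (18.5 ± 1.23 TPM) over H2-DMa (9.03 ± 1.83), H2-Aa (8.61 ± 3.59) and H2-Ab1 (6.59 ± 2.63) to H2-Eb1 (5.81 ± 2.85 TPM), and of these only H2-DMb1 was apart from the next. In KO M0, H2-Aa followed H2-DMb1 with 18.2 ± 1.57 against 19.6 ± 0.0404 TPM, with overlapping libraries. H2-Aa was apart from H2-Eb1, H2-Ab1 and H2-DMa, which were at 11.7 to 13.0 TPM in the mean. H2-Ab1 overlapped both H2-Eb1 and H2-DMa, and all H2-Eb1 libraries were above all H2-DMa libraries. In KO M2, H2-DMa (23.7 ± 2.39 TPM), H2-DMb1 (22.5 ± 2.07 TPM) and H2-Aa (20.2 ± 0.583 TPM) each overlapped the next and lay above H2-Ab1 and H2-Eb1. The sum over the 8 genes was 80.0 to 126 TPM for WT M0 libraries and 140 to 155 TPM for KO M0, against 197 to 301 TPM for WT M2 and 255 to 322 TPM for KO M2, with Cd74 as the largest part.

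The other class II chains were at or near 0. H2-Eb2 and H2-Ea-ps, the pseudogene of the E alpha chain in the reference strain, had 0 counts in all 12 libraries. No RNA of E alpha, the partner of the E beta chain that H2-Eb1 encodes, was thus counted. H2-Oa and H2-Ob, which encode the H2-O molecule that restrains H2-DM, had at most 8 counts in any library. Of the 5 names on this list 4 were in the tables, and none passed the filter on low counts. All 8 main genes passed it, although Ciita reached the filter's 0.353 CPM in none of the WT M0 libraries, in 2 of the KO M0 libraries and in all M2 libraries, and its comparisons with WT M0 rest on 4 to 6 counts per library there.

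With IL-4, 4 of the 8 genes were called higher in WT and 4 in KO, and these were Cd74, Ciita, H2-DMa and H2-DMb1 in both. For H2-Aa, H2-Ab1, H2-Eb1 and H2-DMb2 no change passed the test in either genotype. The called change of H2-DMb1 was smaller than the uncalled one of H2-Eb1 in WT and about the size of the uncalled one of H2-Ab1 in KO, and whether the genes differ from each other was not tested. Ciita passed the filter on low counts only through the M2 groups, where it was higher, as no WT M0 library and 2 KO M0 libraries reached it. With the stricter filter, which left out Ciita and H2-DMb2, 3 of 6 genes were called higher in WT and 3 of 6 in KO. A gene was called at an edgeR quasi-likelihood p under 0.05 after Benjamini-Hochberg adjustment over 12846 genes, and of all these genes 24.9% were called higher with IL-4 in WT and 26.8% in KO. The median log2 fold change of the 8 genes was 0.25 in WT and 0.28 in KO, beside -0.01 and 0.01 over all tested genes.

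**Figure D2:**
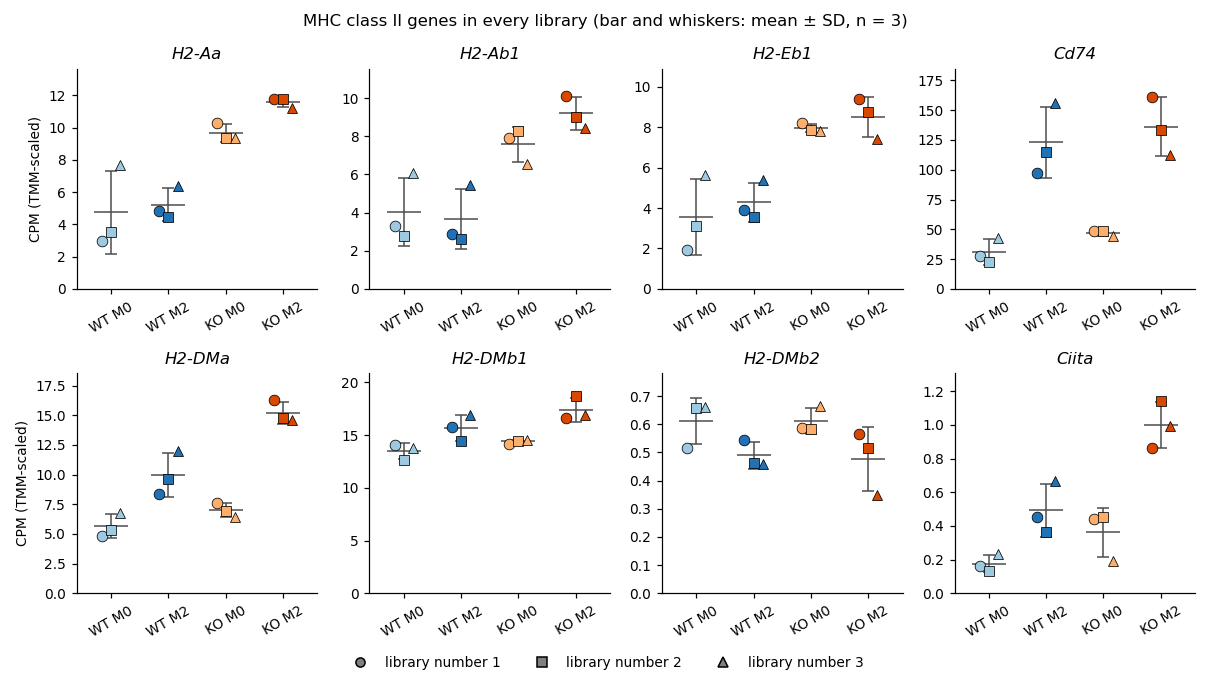
TMM-scaled CPM (linear axes from 0) of each class II gene in WT M0, WT M2, KO M0 and KO M2, with 1 symbol per library (circle, square and triangle for library numbers 1, 2 and 3) and horizontal bars with whiskers for the mean ± SD of 3 libraries. Cd74 separates M0 (22.5 to 48.9 CPM) from M2 (97.3 to 161 CPM), whereas H2-Aa separates WT (2.98 to 7.71 CPM) from KO (9.34 to 11.8 CPM).

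Cd74, the invariant chain, had the largest estimated IL-4 effect of the 8 genes in both genotypes, in KO just ahead of Ciita. In KO this order turned in some fits without 1 library, as without library 2 of KO M0 (log2 fold change 1.55 for Cd74 and 1.7 for Ciita). Cd74 measured 27.3, 22.5 and 42.9 CPM in the WT M0 libraries 1, 2 and 3 and 97.3, 115 and 156 CPM in the WT M2 libraries. In KO it measured 48.9, 48.9 and 44.1 CPM in M0 and 161, 133 and 112 CPM in M2. All 6 M2 libraries were above all 6 M0 libraries. The increase was 3.99-fold in WT (95% interval of the log2 fold change 1.52 to 2.47, edgeR adjusted p = 9.58e-06) and 2.87-fold in KO (1.06 to 1.98, edgeR adjusted p = 6.41e-05).

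Ciita, the transactivator, was low in untreated cells. Its values were 0.162, 0.131 and 0.234 CPM in WT M0 and 0.454, 0.361 and 0.665 CPM in WT M2, and 0.441, 0.451 and 0.194 CPM in KO M0 and 0.866, 1.14 and 0.996 CPM in KO M2. Within each genotype the M2 libraries were above the M0 libraries, but WT M2 and KO M0 overlapped. With IL-4 the log2 fold change was 1.49 in WT (SE 0.46, edgeR adjusted p = 0.0118) and 1.48 in KO (SE 0.33, edgeR adjusted p = 0.00197). These tests are tied to the filter, which Ciita passed only through the M2 groups, where it was higher. Without a filter the values were 1.48 in WT (edgeR adjusted p = 0.017) and 1.46 in KO (edgeR adjusted p = 0.00271). In WT the call of Ciita was lost without library 3 of WT M2 (edgeR adjusted p = 0.0562) and with limma on log2(TPM + 1) (adjusted p = 0.175) and log2(TPM + 0.1) (adjusted p = 0.0604), and with only the 6 WT libraries Ciita did not pass the filter and was not tested.

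H2-DMa, the alpha chain of the peptide editor, moved in step in all mice. It rose from 4.85, 5.32 and 6.78 to 8.36, 9.59 and 12.0 CPM in WT and from 7.60, 6.95 and 6.44 to 16.3, 14.8 and 14.6 CPM in KO. This was a log2 fold change of 0.82 in WT (SE 0.15, edgeR adjusted p = 0.000438) and of 1.12 in KO (SE 0.14, edgeR adjusted p = 1.55e-05). Between libraries of the same number, the log2 difference lay between 0.78 and 0.84 in WT and between 1.08 and 1.17 in KO.

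H2-DMb1, its beta chain partner, changed much less. It measured 14.1, 12.6 and 13.8 CPM in WT M0 and 15.8, 14.4 and 16.9 CPM in WT M2, and 14.2, 14.4 and 14.5 CPM in KO M0 and 16.6, 18.7 and 16.9 CPM in KO M2. The increase was 1.16-fold in WT (log2 fold change 0.22, SE 0.08, edgeR adjusted p = 0.0322) and 1.21-fold in KO (0.28, SE 0.07, edgeR adjusted p = 0.00582). In WT the call was lost with DESeq2 (adjusted p = 0.051), without mouse WT3 (edgeR adjusted p = 0.129), without a filter (edgeR adjusted p = 0.0778), with only the 6 libraries (edgeR adjusted p = 0.0809) and without library 2 of WT M0, 1 of WT M2 or 3 of WT M2. It was lost in KO after thinning (edgeR adjusted p = 0.0514) and in both genotypes with limma on TPM, while the counts of H2-DMb1 and H2-DMb2 summed to 1 gene gave 0.20 in WT (edgeR adjusted p = 0.0433) and 0.26 in KO (edgeR adjusted p = 0.00808).

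H2-DMb2 gave different answers in counts and in TPM. Its values were 0.46 to 0.545 CPM in WT M2 and 0.35 to 0.565 CPM in KO M2, beside 0.517 to 0.662 in WT M0 and 0.584 to 0.664 CPM in KO M0, and all 3 KO M2 libraries were below all 3 KO M0 libraries, as for 31.3% of all genes. In the count test the log2 fold change was -0.31 in WT (SE 0.33, edgeR adjusted p = 0.446) and -0.37 in KO (SE 0.28, edgeR adjusted p = 0.241). On the log2(TPM + 1) scale limma called it lower in both, at -0.36 (adjusted p = 0.0332) and -0.37 (adjusted p = 0.028). The deposited length of H2-DMb2 ran from 777.8 to 1419.6 nucleotides between libraries, which enters TPM and not counts.

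The genes of the class II chains, H2-Aa, H2-Ab1 and H2-Eb1, did not pass the test for IL-4. H2-Aa measured 2.98, 3.55 and 7.71 CPM in WT M0 and 4.86, 4.43 and 6.39 CPM in WT M2, and 10.3, 9.34 and 9.38 CPM in KO M0 and 11.8, 11.8 and 11.2 CPM in KO M2. H2-Ab1 measured 3.30, 2.76 and 6.08 CPM in WT M0, 2.86, 2.63 and 5.47 CPM in WT M2, 7.93, 8.28 and 6.53 CPM in KO M0 and 10.1, 9.03 and 8.45 CPM in KO M2. H2-Eb1 measured 1.94, 3.12 and 5.65 CPM in WT M0, 3.91, 3.56 and 5.37 CPM in WT M2, 8.19, 7.88 and 7.80 CPM in KO M0 and 9.38, 8.75 and 7.43 CPM in KO M2. In WT the M0 and M2 libraries of all 3 genes overlapped, and library 3 was the highest in each set. In KO the M2 libraries of H2-Aa and H2-Ab1 were above the M0 libraries by a small step, and those of H2-Eb1 overlapped.

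The intervals show how large an IL-4 effect on these chains these libraries leave room for. The log2 fold change of H2-Aa was 0.16 in WT (95% interval -0.45 to 0.77, edgeR adjusted p = 0.671) and 0.26 in KO (-0.26 to 0.78, edgeR adjusted p = 0.391). For H2-Ab1 it was -0.14 in WT (-0.80 to 0.53, edgeR adjusted p = 0.742) and 0.28 in KO (-0.29 to 0.85, edgeR adjusted p = 0.4). For H2-Eb1 it was 0.28 in WT (-0.36 to 0.92, edgeR adjusted p = 0.464) and 0.10 in KO (-0.46 to 0.65, edgeR adjusted p = 0.778). The upper ends of these intervals all lie below the lower ends of those of Cd74, 1.52 in WT and 1.06 in KO. With the mouse as a block, H2-Ab1 in KO passed the test (edgeR adjusted p = 0.0174). Without mouse WT3, whose libraries were the highest, H2-Aa (0.51, edgeR adjusted p = 0.00725) and H2-Eb1 (0.56, edgeR adjusted p = 0.0472) passed it in WT, and H2-Aa passed it in KO (0.26, edgeR adjusted p = 0.02).

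Comparing libraries of the same number, Cd74, Ciita, H2-DMa and H2-DMb1 were higher in M2 in 6 of 6 pairs. H2-Aa was higher in 5 of 6 pairs, H2-Eb1 in 4, H2-Ab1 in 3, all of them KO, and H2-DMb2 in 1. Of the 8 genes, 4 in WT and 6 in KO had all 3 M2 libraries above all 3 M0 libraries, beside 27.9% and 32.1% of all genes. For each of these the exact permutation test gave a two-sided p of 0.1, which is the smallest that 3 against 3 libraries can give.

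**Figure D3:**
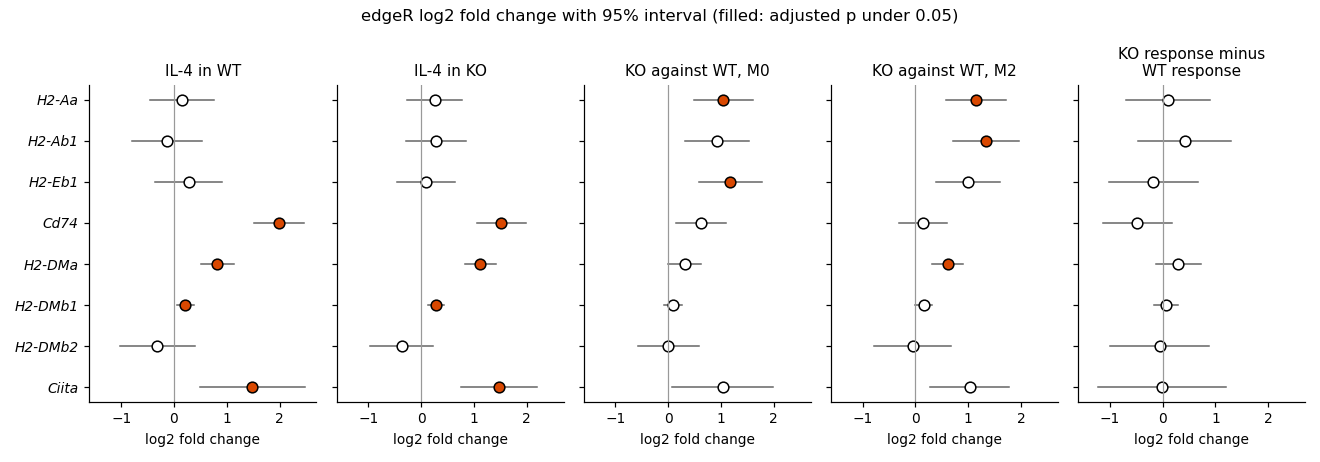
Log2 fold changes of the 8 class II genes with 95% intervals from the edgeR fit in 5 comparisons, with IL-4 over untreated in the first panels, KO over WT in the next, and the KO response minus the WT response in the last. Filled circles mark an adjusted p under 0.05, which 4 genes reached with IL-4 in WT, 4 in KO, 2 between the genotypes in M0, 3 in M2, and none in the last panel.

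In untreated cells, 2 of the 8 genes were called higher in KO, H2-Aa and H2-Eb1, beside 5.5% of all genes called higher, and none was called lower. After IL-4, 3 of the 8 were called higher in KO, H2-Aa, H2-Ab1 and H2-DMa, beside 1.21% of all genes, and none was called lower, beside 1.46%. The median log2 fold change of the 8 genes was 0.77 in M0 and 0.80 in M2, beside 0.00 in both over all tested genes. The comparisons in M0 and M2 share no libraries, but libraries of the same number were taken to come from the same mouse, so that these are not separate sets of mice.

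H2-Aa was higher in KO by 2.06-fold in M0 (log2 fold change 1.04, SE 0.26, edgeR adjusted p = 0.0254) and by 2.21-fold in M2 (1.15, SE 0.26, edgeR adjusted p = 0.0416). H2-Eb1 was higher by 2.26-fold in M0 (1.17, SE 0.27, edgeR adjusted p = 0.0193), and in M2 its log2 fold change of 0.99 did not pass (SE 0.28, edgeR adjusted p = 0.0794). For H2-Ab1 the log2 fold change of 0.92 in M0 did not pass (SE 0.28, edgeR adjusted p = 0.0563), and in M2 it was higher in KO by 2.52-fold (1.33, SE 0.29, edgeR adjusted p = 0.0351). With DESeq2 all 3 genes passed in both treatments (H2-Ab1 in M0 adjusted p = 0.0156, H2-Eb1 in M2 adjusted p = 0.0143), as they did in edgeR without a filter on low counts. With only the 6 libraries compared, neither H2-Aa (edgeR adjusted p = 0.076) nor H2-Eb1 (edgeR adjusted p = 0.0567) passed in M0, and limma on TPM called none of the 3 in M2. For all 3 genes every KO library was above every WT library in M0 and in M2, so that the call and not the order of the libraries distinguished them.

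H2-DMa was higher in KO after IL-4 by 1.53-fold (log2 fold change 0.61, SE 0.14, edgeR adjusted p = 0.0385, and 0.0558 with only the 6 libraries), with all KO libraries above all WT libraries, and in M0 its value was 0.31 (SE 0.14, edgeR adjusted p = 0.199) with overlapping libraries. Ciita had log2 fold changes of 1.03 in M0 (SE 0.44, edgeR adjusted p = 0.148) and 1.02 in M2 (SE 0.34, edgeR adjusted p = 0.122), close in size to those of the class II chains but with wide intervals of 0.07 to 1.99 and 0.28 to 1.77. Its KO M2 libraries were above its WT M2 libraries, while the M0 libraries overlapped. Cd74 had a log2 fold change of 0.62 in M0 (SE 0.22, edgeR adjusted p = 0.101), where every KO library was above every WT library by a margin of 44.1 against 42.9 CPM, and of 0.14 in M2 (SE 0.21, edgeR adjusted p = 0.747), where they overlapped. H2-DMb1 and H2-DMb2 lay between -0.06 and 0.15 in both treatments (edgeR adjusted p from 0.272 to 0.996).

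Counted over the 8 genes, 5 had all 3 KO libraries above all 3 WT libraries in M0 and 5 in M2, beside 16.2% and 13.1% of all genes, and H2-Aa, H2-Ab1 and H2-Eb1 were among them in both. The sum of the dendritic cell markers in M0 was 5.02 to 7.74 TPM for WT and 6.01 to 9.37 TPM for KO, and in M2 27.4 to 32.9 TPM for WT and 20.4 to 25.2 TPM for KO. The 7 B cell genes summed in M0 to 9.69 to 11.7 TPM for WT and 7.86 to 9.79 TPM for KO, and in M2 to 11.8 to 13.3 TPM for WT and 10.6 to 13.9 TPM for KO, with Cd79b alone at 7.6 to 13.0 TPM. Genes of neutrophils and their precursors were in M0 at 18.0 to 43.2 TPM for WT and 13.9 to 15.0 TPM for KO, and in M2 at 11.8 to 27.4 and 10.9 to 15.7 TPM. Stromal genes were in M0 at 10.4 to 20.5 TPM for WT and 3.12 to 12.3 TPM for KO, and in M2 at 11.8 to 21.9 and 2.94 to 10.6 TPM. The part of these cells in the class II levels was not tested, and in bulk RNA fewer or more cells that express a gene cannot be told apart from less or more RNA per cell. Clec9a and Xcr1 had no more than 5 counts in any library. With IL-4 Itgax, which macrophages express too, rose from 5.43 ± 1.42 to 29.6 ± 3.01 TPM in WT (edgeR adjusted p = 1.29e-07) and from 7.20 ± 1.53 to 21.1 ± 2.65 TPM in KO (edgeR adjusted p = 3.64e-06). Zbtb46, a transcription factor of dendritic cells, was at 0.203 ± 0.0635 TPM in WT M0 and 0.873 ± 0.163 TPM in WT M2, and at 0.16 ± 0.0458 and 0.867 ± 0.0351 TPM in KO. It passed the filter on low counts through the M2 groups, as no WT M0 library reached 0.353 CPM, so no test of it with IL-4 is given. Cd22 of B cells rose from 0.277 ± 0.101 to 0.93 ± 0.183 TPM (edgeR adjusted p = 0.000247) and from 0.24 ± 0.0721 to 0.84 ± 0.16 TPM (edgeR adjusted p = 0.000127). Between the genotypes edgeR called none of these 3 genes in M0 or M2, and Itgax had log2 fold changes of 0.40 in M0 (edgeR adjusted p = 0.189) and -0.46 in M2 (edgeR adjusted p = 0.138). Between the genotypes in M0, S100a9 of neutrophils was lower in KO (log2 fold change -1.38, edgeR adjusted p = 0.0124) and Itgam of macrophages higher (0.45, edgeR adjusted p = 0.00396), and neither passed in M2. Other marker lists included genes that fell with IL-4, among them S100a9 of neutrophils in WT (log2 fold change -0.75, edgeR adjusted p = 0.0485). Of the 7 macrophage genes 4 rose and 2 fell in WT, beside 24.9% and 25.1% of all genes, and 2 rose and 2 fell in KO, beside 26.8% and 26.0%. Cd14 fell from 626 ± 77.3 to 73.4 ± 4.48 CPM in WT and from 584 ± 24.5 to 80.3 ± 6.25 CPM in KO, and Fcgr1 from 104 ± 6.03 to 51.1 ± 8.84 CPM and from 103 ± 9.19 to 46.7 ± 2.92 CPM.

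The third WT mouse stood apart from the other WT mice in these genes. Its library was the highest of WT M0 for 7 of the 8 genes and the highest of WT M2 for 7, whereas in the KO groups no library was the highest for more than 5. How often this library was the highest over all genes was not counted, and 6 of the 8 genes lie close together on chromosome 17. In M0 it exceeded the mean of the other WT libraries 2.36-fold for H2-Aa, 2.01-fold for H2-Ab1, 2.23-fold for H2-Eb1, 1.72-fold for Cd74 and 1.59-fold for Ciita, but only 1.13-fold for H2-DMb2 and 1.04-fold for H2-DMb1. In M2 the ratio was 1.99 for H2-Ab1, 1.63 for Ciita, 1.47 for Cd74, 1.44 for H2-Eb1 and 1.38 for H2-Aa. The WT M2 libraries were also the shallowest, and with every library thinned to the total of the smallest the same genes were called between the genotypes as without thinning, 2 in M0 and 3 in M2.

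WT3 was picked as the WT mouse highest in these same genes, so leaving it out raises KO over WT by the choice itself. The fits without it are no separate support for a difference between the genotypes. With both WT3 libraries left out, 5 genes were called higher in KO in M0 (H2-Aa, H2-Ab1, H2-Eb1, H2-DMa and Cd74) and 4 in M2 (H2-Aa, H2-Ab1, H2-Eb1 and H2-DMa). Calls over all genes rose as well, with 979 of 13012 genes higher in M0 and 544 in M2, beside 707 and 156 of 12846 with all libraries. The log2 fold change of H2-Aa was then 1.57 in M0 (edgeR adjusted p = 4.52e-05) and 1.31 in M2 (edgeR adjusted p = 0.000145), and that of H2-Ab1 1.32 (edgeR adjusted p = 0.000305) and 1.74 (edgeR adjusted p = 0.00024). H2-Eb1 gave 1.65 in M0 (edgeR adjusted p = 0.00025) and 1.18 in M2 (edgeR adjusted p = 0.00395). Leaving out single libraries in turn gave 0 to 4 genes in M0 and 0 to 3 in M2. In M0 none was called without library 1, 2 or 3 of KO or library 2 of WT, 1 without library 1 of WT and 4 without library 3 of WT. In M2 none was called in any of these fits except that without library 3 of WT, which gave 3. The fold changes themselves stayed positive for H2-Aa, H2-Ab1 and H2-Eb1 in all of them, with a range for H2-Aa of 0.79 to 1.57 in M0 and up to 1.31 in M2. Limma on TPM called the same 2 genes in M0 and none in M2.

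**Figure D4:**
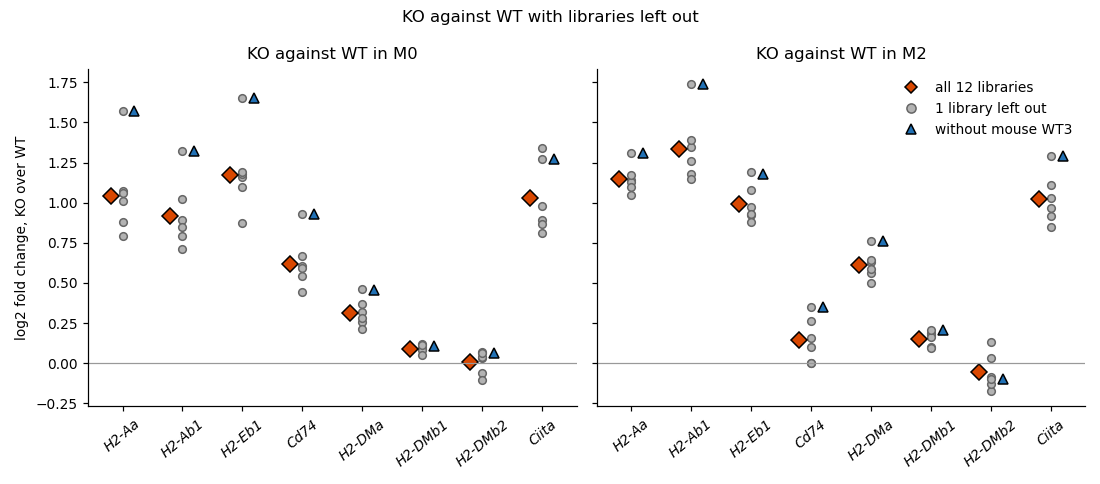
Log2 fold change of KO over WT for each class II gene in M0 and M2 with all 12 libraries (diamonds), with 1 library left out in turn (grey circles) and without both libraries of mouse WT3 (triangles). For H2-Aa, H2-Ab1 and H2-Eb1 all points are above 0, between 0.71 and 1.74, and the triangles are at or near the upper end, whereas the points of H2-DMb2 lie on both sides of 0.

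Whether IL-4 acted differently in KO was tested as the difference between both responses. None of the 8 genes passed, beside 3.24% of all genes called in either direction. None of the 8 had an unadjusted p under 0.05, beside 2290 of all 12846 genes. DESeq2, which gave Ciita and H2-DMb2 no adjusted p, and limma on TPM called none either. The largest difference with all libraries was that of Cd74, at -0.48 (95% interval -1.14 to 0.18, edgeR adjusted p = 0.449), with adjusted p from 0.0594 to 0.67 over the alternatives, the lowest with the mouse as a block. Without 1 library it ranged from -0.787 to -0.27, and that of H2-Ab1 from 0.00964 to 0.818. For H2-Ab1 the difference was 0.42 (-0.46 to 1.29, edgeR adjusted p = 0.642), for H2-DMa 0.30 (-0.13 to 0.73, edgeR adjusted p = 0.47), and for H2-DMb1 0.06 (-0.17 to 0.29, edgeR adjusted p = 0.804). That of Ciita was -0.01 (SE 0.56, edgeR adjusted p = 1), with 4 to 44 counts per library behind it.

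Ratios of TPM within a library compare the genes that work together and do not depend on the scaling between libraries. Cd74 over H2-Aa was 5.68 ± 1.04 in WT M0, 20.0 ± 2.83 in WT M2, 3.99 ± 0.189 in KO M0 and 9.73 ± 1.53 in KO M2 (SD, n = 3), and no pair of groups overlapped. H2-DMa over H2-DMb1, the chains that pair in H2-DM, was 0.492 ± 0.122, 0.727 ± 0.154, 0.597 ± 0.0382 and 1.06 ± 0.184 in the same order. In KO the M2 libraries of this ratio (0.935 to 1.27) were above the M0 libraries (0.566 to 0.639), and in WT they overlapped (0.564 to 0.869 against 0.356 to 0.59). Within libraries of the same number the ratio was higher in M2 in all 3 WT pairs (0.356 to 0.564, 0.529 to 0.746 and 0.59 to 0.869) and in all 3 KO pairs. H2-Aa over H2-Ab1, the chains of the I-A molecule, lay between 1.08 and 1.84 in all 12 libraries, and its 4 groups overlapped.

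**Figure D5:**
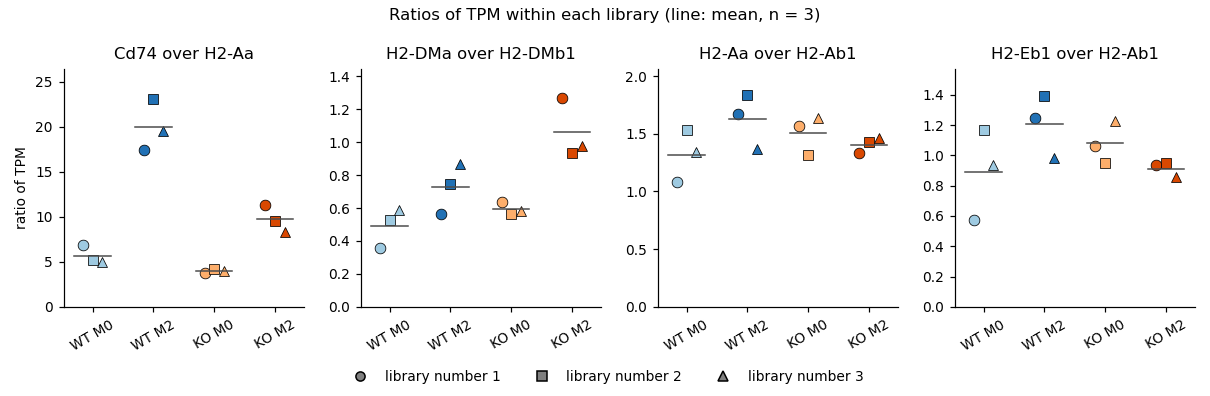
Ratios of deposited TPM within each library for 4 pairs of class II genes (linear axes from 0), with 1 symbol per library and a line at the mean of 3. Cd74 over H2-Aa ranges from 3.79 to 23.1 and keeps the 4 groups apart, whereas H2-Aa over H2-Ab1 stays between 1.08 and 1.84.

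The factors that bind the promoter boxes were called in both directions with IL-4, as were genes in general. Of the 7 genes for RFX, NF-Y and CREB subunits, 1 was called higher and 2 lower with IL-4 in WT, and 1 higher and 3 lower in KO. Of all genes, 24.9% were called higher and 25.1% lower in WT, and 26.8% and 26.0% in KO. Nfyb and Nfya encode subunits of NF-Y, and Rfxap a subunit of RFX. Nfyb fell (log2 fold change -0.71 in WT, edgeR adjusted p = 3.53e-05, and -0.61 in KO, edgeR adjusted p = 8.96e-05), Rfxap fell (-0.39 in WT, edgeR adjusted p = 0.00127, and -0.49 in KO, edgeR adjusted p = 0.00013), while Nfya rose (0.23 in both, edgeR adjusted p = 0.00747 and 0.00667), a call that limma on log2(TPM + 1) did not make (adjusted p = 0.26 in WT and 0.4 in KO). Between the genotypes none of the 7 was called by edgeR, and 2 were at an unadjusted p under 0.05 in M0 and 3 in M2. Of all 12846 genes, 3252 were under it in M0 and 2611 in M2. The log2 fold changes of the 7 lay between -0.23 and 0.15 in M0 and between -0.18 and 0.29 in M2.

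Genes of the routes that lead to Ciita, among them the interferon-gamma receptor and its kinases, were called in both directions. Of 9 genes, 4 rose and 3 fell with IL-4 in WT, beside 24.9% and 25.1% of all genes, and 4 rose and 1 fell in KO, beside 26.8% and 26.0%. Jak2, a kinase of the interferon-gamma receptor, rose by 1.30 in WT (edgeR adjusted p = 4.32e-08) and 1.58 in KO (edgeR adjusted p = 7.27e-09). In KO against WT, 1 of the 9 was called higher and 4 lower in M0, beside 5.5% of all genes called higher and 4.27% lower. Among the 4 were Jak2 (-0.50, edgeR adjusted p = 0.00354), Ifngr1 (-0.29, edgeR adjusted p = 0.0122) and Irf1 (-0.27, edgeR adjusted p = 0.0284). Without 1 library, 1 to 4 of the 9 were called in M0. In M2 edgeR called 0 of the 9, beside 1.21% of all genes called higher and 1.46% lower. Of the 9, 4 were at an unadjusted p under 0.05, beside 2611 of all 12846 genes.

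Of 6 genes of the IL-4 receptor route, 2 rose and 2 fell with IL-4 in WT, and 1 rose and 3 fell in KO, beside 24.9% of all genes called higher and 25.1% lower in WT and 26.8% and 26.0% in KO. Il4ra, the receptor chain for IL-4, rose by 0.38 in WT (edgeR adjusted p = 0.000604) and 0.52 in KO (edgeR adjusted p = 3.76e-05), while Il13ra1, a partner chain of Il4ra, fell by 1.90 (edgeR adjusted p = 8.96e-05) and by 1.60 (edgeR adjusted p = 0.00018). Il2rg (0.28, edgeR adjusted p = 0.0331) and Tyk2 (0.19, edgeR adjusted p = 0.0133), 2 of the 6, were higher in KO M0, beside 5.5% of all genes called higher. Il2rg lost its call without any library of that comparison other than library 3 of WT, and Tyk2 without library 3 of KO. In M2 edgeR called 0 of the 6, beside 1.21% of all genes called higher and 1.46% lower. Of the 6, 2 were at an unadjusted p under 0.05, beside 2611 of all 12846 genes.

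The list of endosomal processing holds proteases that cut antigens or the invariant chain, together with Ifi30, a thiol reductase, and Cst3, an inhibitor of cathepsins. Of 9 genes, 2 rose and 2 fell with IL-4 in WT, and 3 rose and 1 fell in KO. Of all genes 24.9% rose and 25.1% fell in WT and 26.8% and 26.0% in KO, so that the 4 of 9 called in each genotype were no larger a share than that of all genes. Leaving out 1 library gave 1 to 5 of the 9 in WT, the 1 without library 2 of WT M2 and the 5 without library 1, and 3 to 4 in KO. Cst3 was among the 3 that rose in KO (0.29, edgeR adjusted p = 0.00592). Ctsz, a carboxypeptidase of lysosomes, rose by 0.71 (edgeR adjusted p = 3.29e-07) and 0.62 (edgeR adjusted p = 9.95e-07). In M0 Ctsl (0.25, edgeR adjusted p = 0.0158) and Ctsz (0.23, edgeR adjusted p = 0.0211) were higher and Lgmn (-0.20, edgeR adjusted p = 0.0369), which encodes an asparaginyl endopeptidase, was lower in KO. Of all genes 5.5% were called higher and 4.27% lower in M0. Leaving out 1 library gave 0 to 3 of the 9 in M0, and none without library 2 or 3 of KO or library 2 of WT. In M2 edgeR called 0 of the 9, beside 1.21% of all genes called higher and 1.46% lower. Of the 9, 2 were at an unadjusted p under 0.05, beside 2611 of all 12846 genes.

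Regulators of class II turnover at the surface responded to IL-4 in both genotypes. Marchf1 encodes a ubiquitin ligase that removes class II molecules from the surface, and Cd83 encodes a protein that opposes it. Marchf1 rose from 6.35 ± 0.716 to 18.6 ± 2.94 CPM in WT and from 10.9 ± 0.577 to 20.4 ± 1.25 CPM in KO (SD, n = 3), by log2 fold changes of 1.55 (edgeR adjusted p = 2.53e-07) and 0.90 (edgeR adjusted p = 1.48e-05). Cd83 rose from 2.95 ± 0.525 to 11.8 ± 0.831 CPM and from 1.41 ± 0.26 to 13.1 ± 1.16 CPM, by 1.99 (edgeR adjusted p = 1.32e-07) and 3.20 (edgeR adjusted p = 2.58e-09). In untreated cells Marchf1 was higher (0.79, edgeR adjusted p = 0.00198) and Cd83 lower (-1.06, edgeR adjusted p = 0.00241) in KO, and in M2 neither was called. The list holds 3 genes under 5 older and newer names, of which all 3 rose in WT and 2 in KO, beside 24.9% and 26.8% of all genes, where Marchf8, the related ligase, had a log2 fold change of 0.10.

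Of 6 molecules that meet the T cell together with class II, 4 were called higher and 1 lower with IL-4 in WT, beside 24.9% and 25.1% of all genes, and 5 higher and 1 lower in KO, beside 26.8% and 26.0%. These counts include Pdcd1lg2, which encodes PD-L2 and passed the filter on low counts only through the M2 groups, and the other 5 gave 3 higher and 1 lower in WT and 4 and 1 in KO. Pdcd1lg2 had 0 to 2 counts per M0 library and was at 8.74 to 14.6 CPM in M2. Cd40 rose by 1.61 in WT (edgeR adjusted p = 1.04e-08) and 2.50 in KO (edgeR adjusted p = 1.73e-10), and Cd274, which encodes PD-L1, by 1.73 (edgeR adjusted p = 2.34e-06) and 1.72 (edgeR adjusted p = 1.8e-06). In KO M0, Icam1 (-0.78, edgeR adjusted p = 9.71e-05) and Cd40 (-0.42, edgeR adjusted p = 0.015) were lower, and in KO M2, Cd86 (0.67, edgeR adjusted p = 0.0487) and Cd40 (0.47, edgeR adjusted p = 0.0156) were higher. Of all genes 4.27% were called lower in M0 and 1.21% higher in M2. Cd86 lost its call without any 1 of the 6 libraries compared, and Cd40 in M2 without library 2 or 3 of KO or 2 of WT, with edgeR adjusted p up to 0.167 and 0.0735. In M0, Cd40 lost its call without library 1 or 2 of KO or 2 of WT.

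Genes whose pattern over the 12 libraries was most like the mean of H2-Aa, H2-Ab1, H2-Eb1 and Cd74 were sought among 9740 genes whose mean level was 5 CPM or more. Likeness was the root mean square difference of log2 CPM after each gene was centred on its own mean. The nearest were Rps6-ps4 (0.27), Mpc1-ps (0.28), Gm9701 (0.29), Slc2a6 (0.29) and Eps8 (0.30), with means of 7.02, 8.20, 6.48, 43.7 and 34.8 CPM. Names ending in -ps mark pseudogenes, whose reads may be shared with the parent gene. Of the genes that contribute to the mean, H2-Aa lay at 0.21, H2-Eb1 at 0.24, H2-Ab1 at 0.33 and Cd74 at 0.67, so that H2-Ab1 and Cd74 were farther from it than the 5 genes named. H2-DMa lay at 0.37, Ciita at 0.45, H2-DMb1 at 0.53 and H2-DMb2 at 0.73.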

How the data were processed

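RNA-Seq libraries were sequenced by the authors as single reads of 75 nucleotides, checked with FastQC 0.11.2, processed with Grape-nf and aligned to GRCm38. The deposited tables give, per library, expected counts (estimated reads per gene) and TPM with credibility bounds, posterior SD and gene length. The deposited DESeq2 1.40.2 tables hold the authors' own fold changes and p-values and served only for gene symbols, which paired 37570 of 38887 genes together with the reference annotation.

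The 8 genes and all lists were chosen with earlier results of these data known. Expected counts were rounded, filtered with filterByExpr (0.353 CPM in at least 3 libraries) and fitted for 12846 genes with edgeR 4.0.16 in R 4.3.3 (TMM, quasi-likelihood F test, 1 coefficient per group). p-values were adjusted by Benjamini-Hochberg over all genes, with calls under 0.05. Standard errors were computed from the Fisher information with the posterior quasi-dispersion. Intervals and limits for 0 counts cover these libraries only. Ratios, ranks and figures were made in Python 3.11.15. From each pathway list the text names up to 3 called genes with the largest change per comparison.

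M0 and M2 libraries that share a number in the titles deviated together from their group means over genes (correlations of 0.331, 0.103 and 0.364 in WT and 0.166, 0.16 and 0.209 in KO), so the number was taken as the mouse. Between WT and KO, libraries that share a number did not (-0.068 to 0.04). Alternatives were DESeq2 1.42.0, RLE factors, 2 other filters, limma 3.58.1 on log2(TPM + 1) and log2(TPM + 0.1), a block, only the 6 libraries compared, H2-DMb1 and H2-DMb2 summed, and leaving out each library. Leaving out mouse WT3 and thinning (to 20011771 counts) were added after the data were seen. The scripts were tested on simulated counts. Some genes of the lists are not reported here.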

Additional observations from a re-analysis of the deposited data

Results flagged for a closer look

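None of the 8 class II genes passed the test of a difference between the IL-4 responses of KO and WT, also with the mouse as a block. Between libraries of the same number, the responses of Cd74, H2-DMa and H2-Ab1 did not overlap between WT and KO, and those of the other members did. How often this occurs over all genes was not counted. No formal outlier test was made in groups of 3 libraries. Of 40 tested genes on the pathway lists, 7 passed the test of the difference, beside 3.24% of all genes, with the sign given as the response in KO minus that in WT. The difference was 1.21 for Cd83 (SE 0.21, edgeR adjusted p = 0.00955), 0.92 for Icam1 (SE 0.10, edgeR adjusted p = 0.00185) and 0.89 for Cd40 (SE 0.12, edgeR adjusted p = 0.00405). These genes were lower in KO M0 than in WT M0, and Icam1 fell with IL-4 from 192 ± 10.0 to 79.5 ± 7.14 CPM in WT and was at 111 ± 8.06 and 87.4 ± 3.81 CPM in KO M0 and M2. Smaller differences were those of Marchf1 (-0.65, SE 0.16, edgeR adjusted p = 0.0471), Ifngr2 (0.38, SE 0.08, edgeR adjusted p = 0.0194), Lgmn (0.32, SE 0.08, edgeR adjusted p = 0.0473) and Stat6 (-0.23, SE 0.06, edgeR adjusted p = 0.048). Over the alternatives, Cd40 and Icam1 kept their call in all 22 settings and Cd83 in 21, while Ifngr2 lost it in 6, Marchf1 and Stat6 in 13 and Lgmn in 14.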

How the results depend on the processing

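With IL-4, the number of class II genes called in WT was 2 to 6 without 1 library and 2 in a fit of only the 6 libraries compared, beside 4, and in KO, beside 4, it was 4 in every fit without 1 library, 5 with only the 6 libraries (H2-Aa added), with the mouse as a replicate block or without mouse WT3, 3 after thinning, and 3 higher and 1 lower with limma. Ciita was not tested with only the 6 WT libraries. Between the genotypes in M0, beside 2, it was 0 to 4 without 1 library, 4 without a filter on low counts, 0 with only the 6 libraries and 5 without mouse WT3. With DESeq2 it was 3 in M0, adding H2-Ab1. In M2, beside 3, it was 0 to 3 without 1 library, 4 with DESeq2, without a filter or without mouse WT3, each adding H2-Eb1, 3 with only the 6 libraries, where H2-Eb1 was called (edgeR adjusted p = 0.037) and H2-DMa was not (0.0558), and 0 with limma on log2(TPM + 1) or log2(TPM + 0.1). The difference between the responses had 0 under all 22 alternatives.

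Over all genes, beside 1256 in M0, 461 to 1461 were called without 1 library and 752 and 700 with limma on log2(TPM + 1) and log2(TPM + 0.1). In M2, beside 344, 25 to 298 were called without 1 library, 713 with DESeq2, 70 and 57 with limma, 165 with only the 6 libraries and 1098 without mouse WT3. For the difference between the responses, beside 416, 183 to 643 were called without 1 library, 816 with DESeq2, 113 with either limma fit and 1003 with the mouse as a replicate block. With limma on log2(TPM + 1) 39.9% of the IL-4 calls in WT and 39.2% in KO were higher, beside 49.8% and 50.7%.

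Signs turned only where no call was made. Without 1 library the IL-4 effect in WT ranged from -0.0908 to 0.68 for H2-Aa, -0.54 to 0.26 for H2-Ab1 and -0.0236 to 0.75 for H2-Eb1. H2-DMb2 in KO against WT ranged from -0.11 to 0.0705 in M0, with -0.00269 under limma on log2(TPM + 1) and -0.000118 with only the 6 libraries, and from -0.17 to 0.13 in M2. The difference between the responses ranged from -0.42 to 0.35 for H2-Aa, -0.66 to 0.12 for H2-Eb1, -0.18 to 0.13 for H2-DMb2 and -0.32 to 0.26 for Ciita. Without mouse WT3 it was -0.25 for H2-Aa and 0.022 for Ciita, after thinning -0.0215 for H2-DMb1, and for Ciita 0.25 and 0.11 with limma on log2(TPM + 0.1) and log2(TPM + 1) and 0.0393 with the mouse as a replicate block. The cause was not tested.

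The block by library number, which does not pair the genotypes, gave 2 genes in M0 and 3 in M2. The mouse block changed no call of the 8 genes other than that of H2-Ab1 with IL-4 in KO. The stricter filter removed Ciita and H2-DMb2, whose 4 to 44 and 9 to 24 counts per library limit what can be seen of them.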
